A study of Mus musculus with 6 samples.

Results

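The GIMAP genes (GTPases of immunity-associated proteins) were followed in CD8+ T cells on 6 whole-transcript arrays, 3 labelled Dot1l knockout and 3 labelled wild type. The members were selected on their names, as the 8 mouse GIMAP genes, Gimap1, Gimap3, Gimap4, Gimap5, Gimap6, Gimap7, Gimap8 and Gimap9, out of 22180 genes measured by a probe set with exactly 1 gene symbol. Where a gene had several such probe sets, one was chosen by the highest mean over all 6 arrays, a measured value that does not use the difference between groups. Among the members that choice touched only Gimap1, whose probe sets averaged 7.81 (used) and 4.22. All 8 members had a probe set, and all 8 lay above the background guide of 3.83 in every array. That guide was the 95th percentile of the mean log2 levels of 1394 olfactory and vomeronasal receptor genes. The family was proposed with results of this comparison known, so the values below describe it and are not independent support for its choice.

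The Dot1l knockout arrays came from mice in which a floxed Dot1l gene was combined with Cre recombinase driven by Cd4, whose promoter is active in developing T cells. Wild type arrays formed the other group, and the labels do not say whether those mice carried the floxed allele or Cre. Both groups were of the C57BL/6 strain, received no treatment, and gave fresh CD8+ T cells isolated with a magnetic kit from spleen and peripheral lymph nodes. The labels used here state no age, sex or pooling of animals. They do not name separate animals either, so p-values measure how far these arrays spread, which may be a technical spread.

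GIMAP proteins are small GTP-binding proteins of lymphocytes that sit largely on the membranes of intracellular organelles, and several form dimers through their GTP-binding domains. They are best known for keeping mature lymphocytes alive. Loss of Gimap5 causes a severe shortage of T cells in rats and mice, and mouse T and B cells need Gimap1 to persist outside the thymus and bone marrow. In the mouse the genes form a single cluster on chromosome 6. Dot1l encodes a methyltransferase that acts on a lysine in the core of histone H3, and the comparison asks which transcripts differ in T cells carrying the Dot1l deletion.

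Gimap7 was the member with the large difference, and Gimap1 is the next gene after it in the cluster. Their promoter windows are shown with that of Gimap4, the member with the most positive difference. The sequences are the RefSeq windows of build GRCm38.p6, from 250 bases before to 50 bases after the start of the transcript, written 5′ to 3′ on the + strand, on which all 3 genes lie. They cover chr6:48718371-48718670 for Gimap7, chr6:48738797-48739096 for Gimap1 and chr6:48684328-48684627 for Gimap4. Capitals mark matches, on either strand, to 5 sets of letters searched: GGAAGT (core of ETS sites), CACCC (KLF), TGTGGT (RUNX), CTTTGA (TCF and LEF) and CCGCCC (GC box).
Gimap7: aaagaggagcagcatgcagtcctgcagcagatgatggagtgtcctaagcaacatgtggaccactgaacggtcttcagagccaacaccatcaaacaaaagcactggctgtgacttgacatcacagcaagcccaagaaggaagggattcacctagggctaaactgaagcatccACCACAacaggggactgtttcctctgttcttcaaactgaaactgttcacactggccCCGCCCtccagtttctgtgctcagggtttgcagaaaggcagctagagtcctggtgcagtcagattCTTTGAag
Gimap1: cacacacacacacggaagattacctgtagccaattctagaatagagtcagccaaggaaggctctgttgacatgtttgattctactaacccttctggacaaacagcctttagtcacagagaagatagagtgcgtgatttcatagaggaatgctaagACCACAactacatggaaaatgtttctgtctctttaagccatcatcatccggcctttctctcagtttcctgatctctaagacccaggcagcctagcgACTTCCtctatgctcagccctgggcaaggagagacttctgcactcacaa
Gimap4: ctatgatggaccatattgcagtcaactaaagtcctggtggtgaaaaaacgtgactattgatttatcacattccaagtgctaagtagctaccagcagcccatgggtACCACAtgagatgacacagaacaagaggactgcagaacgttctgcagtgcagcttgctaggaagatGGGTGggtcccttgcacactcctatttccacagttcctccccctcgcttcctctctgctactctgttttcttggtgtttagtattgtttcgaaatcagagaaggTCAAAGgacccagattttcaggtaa

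The Gimap7 window held a RUNX match whose first base lay at -79 from the transcript start, a GC box match at -23 and a TCF and LEF match at 43. The Gimap1 window held a RUNX match at -95 and an ETS match at 2. The Gimap4 window held a RUNX match at -145, a KLF match at -79 and a TCF and LEF match at 26. RUNX and TCF and LEF letters were present in the windows of both Gimap7 and Gimap4. RUNX letters occurred in windows of 3 of 8 members, against 16.8% of all 32851 promoter windows. TCF and LEF letters occurred in 2 of 8 members, against 16% of all windows. ETS letters occurred in 4 of 8 members (23.8% of all windows), KLF letters in 5 of 8 (57.5%) and GC box letters in 2 of 8 (35.7%). In the 3 windows shown no match overlapped a match of another set. These matches describe letters only, and binding of any factor was not measured.

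The label of CD8+ T cells was checked against 10 marker genes, of which 8 were measured, and all 8 lay above the background guide in every array. Cd8a read 10.95 ± 0.07 in Dot1l knockout and 11.12 ± 0.12 in wild type arrays (log2, SD, n = 3 each). Cd8b1 read 11.21 ± 0.07 in Dot1l knockout and 11.26 ± 0.09 in wild type arrays. Dot1l itself read 7.31, 7.26 and 7.33 in Dot1l knockout arrays and 7.46, 6.96 and 7.18 in wild type arrays. Its probe set was therefore not lower in the knockout arrays. No source used here names the deleted part of the gene, so it is not known whether this probe set checks the labels, and directions refer to arrays as labelled.

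Gimap7 was lower in Dot1l knockout arrays by 2.47-fold, and it was the 1 of 8 members that passed the table-wide test (limma, Benjamini-Hochberg adjusted p under 0.05 over 22180 genes). No member passed as higher. Over all genes 1.20% passed as lower and 4.30% as higher, or 5.50% in either direction. These shares moved with scaling: 78.2% of the passing genes were higher as deposited, 68.8% after median centring of each array and 57.1% after another quantile normalization. The median log2 difference of the 8 members was -0.03, beside -0.01 for all genes tested, with 4 members above 0 and 4 below. Gimap7, Gimap1 and Gimap6 lay toward the low end of the table, with 23, 758 and 894 of the 22180 genes at or below their differences.

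Gimap7 encodes a GTPase that, in human cells, forms dimers and can stimulate the GTPase activity of a relative. Its log2 level was 5.58, 5.58 and 5.93 in Dot1l knockout arrays, against 6.97, 7.17 and 6.86 in wild type arrays. The groups did not overlap, and the gap between the highest knockout and the lowest wild type array was 0.93, wider than the range within either group (0.35 in knockout and 0.31 in wild type arrays). The means were 5.70 ± 0.20 in Dot1l knockout and 7.0 ± 0.16 in wild type arrays (SD, n = 3 each). The log2 difference was -1.30 (SE 0.13, 95% interval -1.61 to -1.0, limma adjusted p = 0.00056). The direction and the call were kept when any 1 of the 6 arrays was left out, with differences of -1.42 to -1.22 and adjusted p of 0.00142 to 0.00423 (limma).

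**Figure D1:**
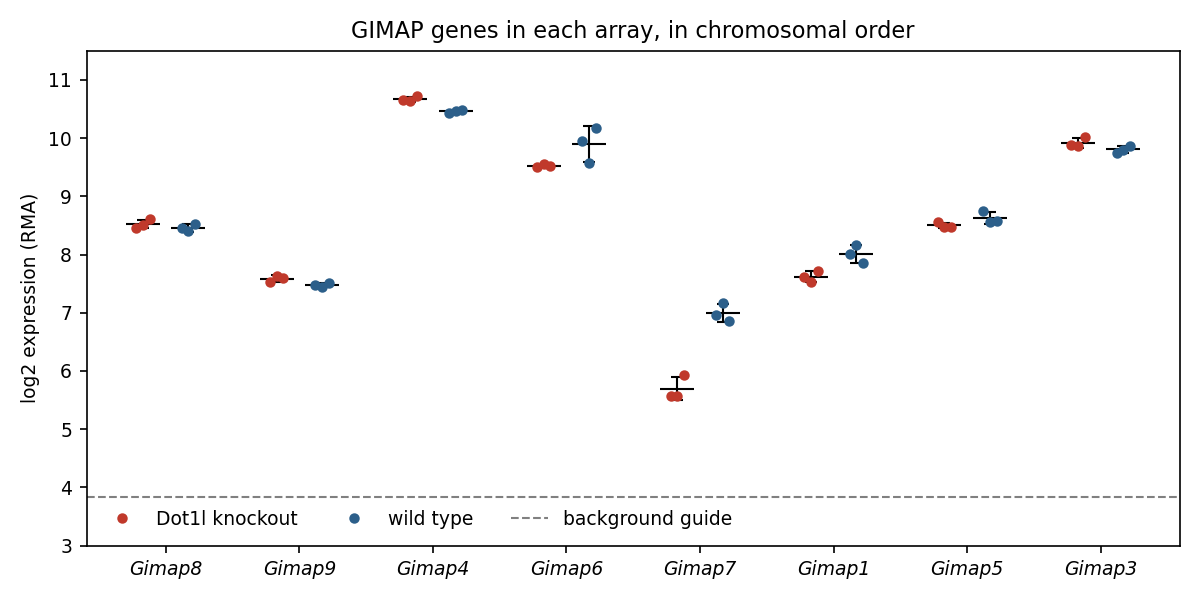
The vertical axis gives the log2 expression value of each GIMAP gene and the horizontal axis the genes in chromosomal order. Points are single arrays (red, Dot1l knockout; blue, wild type), short bars are means with SD of 3 arrays, and the dashed line is the background guide of 3.83. Gimap7 is the gene with a wide gap between the groups, at 5.58 to 5.93 in knockout against 6.86 to 7.17 in wild type arrays. Levels of different genes come from different probes and are not to be compared.

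Gimap1, which mature lymphocytes of the mouse need for survival, read 7.61, 7.52 and 7.71 in Dot1l knockout arrays, against 8.01, 8.16 and 7.85 in wild type arrays. The groups did not overlap, with a gap of 0.14. The log2 difference was -0.39 (SE 0.12, 95% interval -0.65 to -0.13), and Gimap1 did not pass (limma adjusted p = 0.0958). The second Gimap1 probe set, which was not the one chosen, read 3.63, 3.71 and 4.14 in Dot1l knockout arrays, against 4.81, 4.60 and 4.40 in wild type arrays. This dim probe set straddled the background guide in knockout arrays and gave a difference of -0.77 (SE 0.18, limma adjusted p = 0.0669 over all probe sets). Both probe sets were thus lower in every knockout array than in any wild type array, and neither passed. Averaging them gave -0.58, and the gene then passed (limma adjusted p = 0.0302).

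Gimap6, a member known to bind the autophagy protein Gabarapl2, read 9.51, 9.55 and 9.52 in Dot1l knockout arrays, against 9.95, 9.56 and 10.17 in wild type arrays. The knockout arrays lay close together, and wild type replicate 2 was only 0.01 above the highest of them, whereas the other two wild type arrays were clearly higher. The difference was -0.37 (SE 0.15, 95% interval -0.70 to -0.03), and Gimap6 did not pass (limma adjusted p = 0.226). Without wild type replicate 2 it was -0.53 and passed (limma adjusted p = 0.0307), while without wild type replicate 3 it was -0.23.

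Gimap5, the member whose loss empties the T cell compartment in rats and mice, read 8.56, 8.48 and 8.48 in Dot1l knockout arrays, against 8.75, 8.57 and 8.58 in wild type arrays. The groups were separated by 0.01, and the difference was -0.13 (SE 0.10, 95% interval -0.35 to 0.10, limma adjusted p = 0.583). Gimap3, its close relative in the mouse, read 9.88, 9.86 and 10.01 in Dot1l knockout arrays, against 9.75, 9.80 and 9.87 in wild type arrays. These groups overlapped, and the difference was 0.11 (SE 0.10, 95% interval -0.11 to 0.34, limma adjusted p = 0.631). Gimap3 and Gimap5 are similar in sequence, and no source used here says whether their probes share targets.

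Gimap4, a member linked to T cell death after stimulation in mouse and rat, read 10.65, 10.64 and 10.72 in Dot1l knockout arrays, against 10.44, 10.46 and 10.48 in wild type arrays. The groups were separated by 0.16, more than the range within either group. The difference was 0.21 (SE 0.09, 95% interval -0.002 to 0.42), the most positive of the family, and it did not pass (limma adjusted p = 0.283).

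Gimap9 read 7.53, 7.63 and 7.60 in Dot1l knockout arrays, against 7.49, 7.43 and 7.51 in wild type arrays, a difference of 0.11 (SE 0.10, 95% interval -0.11 to 0.33, limma adjusted p = 0.618). Gimap8, a large member with several GTP-binding domains, read 8.46, 8.51 and 8.60 in Dot1l knockout arrays, against 8.45, 8.40 and 8.53 in wild type arrays. Its groups overlapped, and its difference was 0.06 (SE 0.10, 95% interval -0.16 to 0.29, limma adjusted p = 0.802). For Gimap9 the groups were separated by 0.02.

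Groups that did not overlap were common, at 23.5% of all genes in either direction, 9.78% as lower and 13.7% as higher. Among the members 4 were separated as lower (Gimap7, Gimap1, Gimap6 and Gimap5) and 2 as higher (Gimap4 and Gimap9), with gaps of 0.01 to 0.16 for the 5 other than Gimap7. With the chosen probe sets, the 95% intervals of the 7 members that did not pass reached no lower than -0.70. That of Gimap7 reached no higher than -1.0, so they did not meet. The second Gimap1 probe set, at -0.77 (SE 0.18), is not covered by this and lay nearer to Gimap7. Gimap7 was taken for its large difference, and the intervals are not adjusted for that choice. Their separation describes these values and is not a test.

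The change of Gimap7 was also set against each other member within the same array, which removes any shift common to an array. The log2 ratio of Gimap7 to the other gene differed, Dot1l knockout minus wild type, by -0.91 for Gimap1, -0.93 for Gimap6 and -1.18 for Gimap5. The same difference was -1.37 for Gimap8, -1.41 for Gimap9, -1.42 for Gimap3 and -1.51 for Gimap4. The groups did not overlap for any of these 7 ratios. Each gave p = 0.1 in a two-sided exact permutation test over arrays. That is the smallest that 3 against 3 arrays allow, so the design cannot reach 0.05 for them. All 7 ratios share the same Gimap7 values, and Gimap7 was taken for its large difference. They restate that difference and are not separate support for it.

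**Figure D2:**
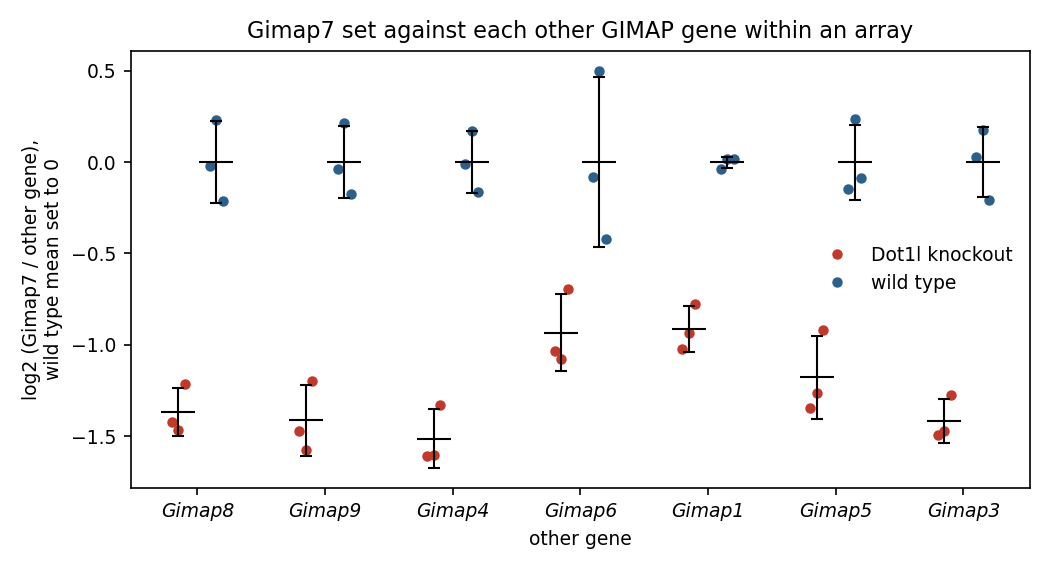
The vertical axis gives the log2 ratio of Gimap7 to each other GIMAP gene in the same array, shifted so that the wild type mean is 0. The horizontal axis names the other gene. Points are arrays (red, Dot1l knockout; blue, wild type), with bars for the mean and SD of 3 arrays. All 3 knockout arrays lie below all 3 wild type arrays in each of the 7 ratios.

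In the RefSeq order of the cluster, Gimap8, Gimap9 and Gimap4 come first, then Gimap6, Gimap7, Gimap1, Gimap5 and Gimap3. Gimap6 and Gimap3 lie on the - strand and the other 6 members on the + strand. The signs of the differences followed this order in blocks, with values of 0.06 to 0.21 for the first 3 genes, -1.30 to -0.13 for the next 4 and 0.11 for Gimap3 at the end. Gimap6, Gimap7 and Gimap1, with the 3 most negative differences, are consecutive members. This is a description of 8 genes and was given no test.

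The 6 measured genes on each side of the cluster were read in the same way. Of these 12 genes 2 passed as higher and 0 as lower, beside 4.30% and 1.20% of all genes, with a median difference of -0.10. Both that passed were the nearest measured genes after Gimap3. Tmem176b and Tmem176a encode related transmembrane proteins best known from dendritic cells and from lymphocytes that use the factor RORγt. Tmem176b read 6.18 ± 0.27 in Dot1l knockout and 5.21 ± 0.27 in wild type arrays (SD, n = 3 each), a rise of 0.97 (SE 0.17, limma adjusted p = 0.0108). Tmem176a read 5.52 ± 0.09 in Dot1l knockout and 4.44 ± 0.36 in wild type arrays, a rise of 1.07 (SE 0.17, limma adjusted p = 0.00591).

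The gene nearest to Gimap8 on the other side, AI854703, differed by 0.07 (SE 0.15), and the next, Zfp775, by -0.24 (SE 0.25). Repin1 (0.29), Gm5111 (-0.05), Lrrc61 (-0.34) and Atp6v0e2 (-0.13) lay further out. Beyond Tmem176a, the log2 differences of Aoc1, Doxl1, Doxl2 and Svs1 lay between -0.18 and -0.07. None of these 10 passed, and 5 of the 12 neighbours were below the background guide in all arrays. The cluster thus held a gene that fell by 1.30 and was followed by a pair that rose by 0.97 and 1.07.

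**Figure D3:**
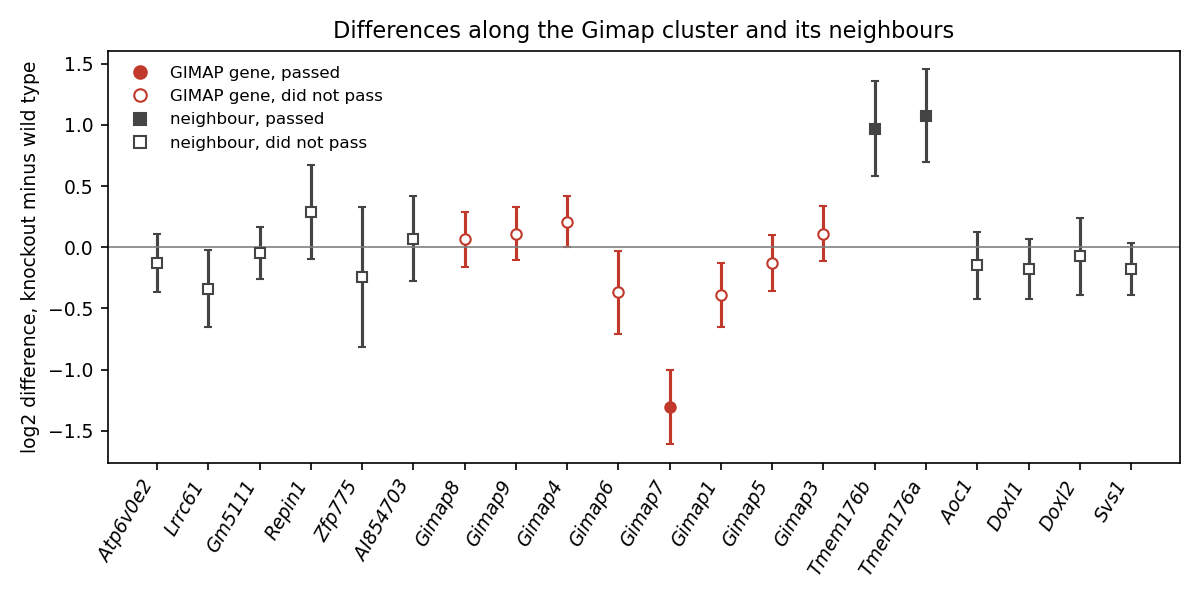
The vertical axis gives the log2 difference, Dot1l knockout minus wild type, with its 95% interval (limma). The horizontal axis lists genes in RefSeq order, evenly spaced and not to genomic scale. Red circles are GIMAP genes, dark squares the 6 measured neighbours on each side, and filled symbols passed the table-wide test. Gimap7 stands at -1.30 among members between -0.39 and 0.21, and Tmem176b and Tmem176a at 0.97 and 1.07.

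A list of proteins reported to bind GIMAP proteins, with autophagy genes, had 17 of 18 genes measured. Of these 2 passed as higher, beside 4.30% of all genes, and 0 as lower, beside 1.20%. The other 15 did not pass, and the median difference was 0.14 beside -0.01 for all genes. Gabarapl1, a relative of the Gimap6 partner Gabarapl2 that attaches to autophagosome membranes, read 6.74 ± 0.05 in Dot1l knockout and 5.61 ± 0.32 in wild type arrays. It rose by 1.13 (SE 0.15, limma adjusted p = 0.00292). The partner Gabarapl2 itself differed by 0.30 and did not pass (limma adjusted p = 0.259), and its groups overlapped. Bcl2l11, the gene of Bim, a protein that triggers cell death, rose by 0.86 (SE 0.11, limma adjusted p = 0.00158). The survival gene Bcl2 differed by 0.34 (limma adjusted p = 0.141) and its relative Bcl2l1 by 0.42 (limma adjusted p = 0.18), and neither passed.

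The naive T cell list had 18 of 20 genes measured, of which 5 passed as lower and 0 as higher, beside 1.20% and 4.30% of all genes, with a median of -0.06. Dapl1, a gene of naive T cells, read 7.46 ± 0.30 in Dot1l knockout and 9.86 ± 0.09 in wild type arrays (-2.39, SE 0.15). Igfbp4 fell by 2.10, the interleukin-6 receptor gene Il6ra by 1.34 and the actin cross-linker gene Actn1 by 0.68, and limma adjusted p of these 4 genes lay between 4e-05 and 0.00388. The fifth gene that passed was Lef1, a transcription factor of naive T cells, which fell by 0.63 (SE 0.10, limma adjusted p = 0.00537) and was named after its value was seen.

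Interferon-inducible GTPases, a separate group of GTP-binding proteins that act against microbes inside cells, had 13 of 18 genes measured. Of these 8 passed as higher and 0 as lower, beside 4.30% and 1.20% of all genes, with a median of 0.69. Mx2 rose by 2.00 (SE 0.29), Mx1 by 1.62 (SE 0.25), Iigp1 by 1.44 (SE 0.19) and Gbp3 by 0.88 (SE 0.11), with limma adjusted p of 0.00206 to 0.00525. The wild type means of Mx1 (3.33) and Mx2 (3.52) were under the background guide, which leaves the size of their rises uncertain. Gbp6, also among the 8 that passed, had both means under the guide (3.71 in Dot1l knockout and 2.98 in wild type arrays). Without knockout replicate 2 or 3 or wild type replicate 3 the count was 4 of 13.

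**Figure D4:**
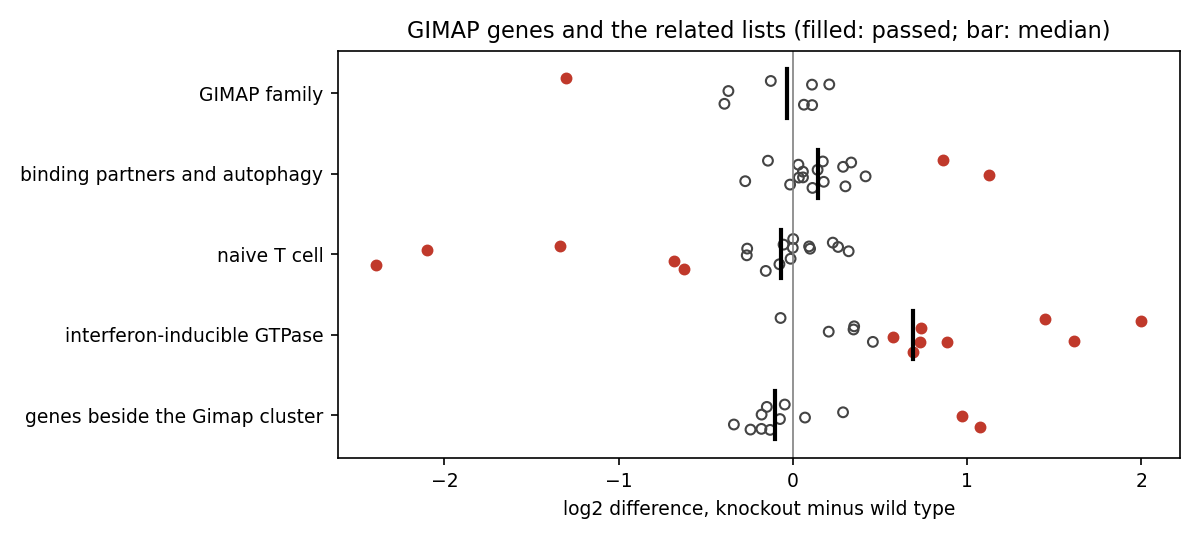
Each point is a gene, placed by its log2 difference, Dot1l knockout minus wild type, with rows for the GIMAP family and 4 related lists. Filled points passed the table-wide test (limma), open points did not, and the bar is the median of the list. The GIMAP median is -0.03, with Gimap7 at -1.30, and the interferon-inducible GTPases have a median of 0.69. Vertical scatter within a row is random.

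In bulk samples, fewer cells of a type and less RNA per cell cannot be told apart. GIMAP genes are used by B cells and other lymphocytes as well as T cells, so markers of other cells are given beside the fall of Gimap7. Beside 4.30% of all genes as higher and 1.20% as lower, 3 of 11 measured B cell markers passed as higher (Cd22 by 1.29, Ms4a1 by 1.13 and Cd79a by 0.86) and Ighm as lower (-0.60). Their summed log2 level was 54.7 to 56.9 in Dot1l knockout and 51.0 to 53.6 in wild type arrays, and 3 markers, among them the defining factor gene Pax5 (3.34 in knockout and 3.53 in wild type arrays), stayed below the background guide in all arrays. Over the list 7 differences were positive and 4 negative.

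Of 8 NK cell markers 4 passed as higher (Gzma, Nkg7, Tyrobp and Klrk1, by 0.43 to 2.08) and 0 as lower, beside 4.30% and 1.20% of all genes. The other 4 NK cell markers did not pass. Summed levels of the 8 were 48.4 to 50.2 in Dot1l knockout and 42.5 to 44.7 in wild type arrays. Of 10 dendritic cell markers 4 passed as higher (Itgax, H2-Aa, Irf8 and Bst2, by 0.75 to 1.21), beside 4.30% of all genes. Summed levels of the 10 were 51.1 to 51.9 in Dot1l knockout and 45.7 to 48.9 in wild type arrays. The other 6 dendritic cell markers did not pass, and over the list 6 differences were positive and 4 negative, with 3 markers below the background guide in all arrays. Those below 0 were Xcr1 (-0.22), Clec10a (-0.19), Flt3 (-0.15) and Siglech (-0.02), chosen after their values were seen. The part of these markers in the rises of Tmem176a and Tmem176b was not tested.

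Among CD4 helper and regulatory T cell markers Ikzf2 (1.16) and Il2ra (0.69) rose and Cd40lg (-0.88) fell, of 8 measured, with summed levels of 40.9 to 41.5 in Dot1l knockout and 40.3 to 41.8 in wild type arrays. Cd4 itself read 3.86 in Dot1l knockout and 3.79 in wild type arrays, at the background guide. Cd40lg read 3.05 in Dot1l knockout arrays, under the guide, and 3.93 in wild type arrays, close to it. Over these 8 markers 3 differences were positive and 5 negative. Ccr2 and Itgam passed as higher among 10 monocyte and macrophage markers (summed levels of 43.9 to 45.2 in knockout and 41.1 to 42.6 in wild type arrays). Over that list 6 differences were positive and 4 negative, and Ccr2 alone rose by 2.52. Cxcr2 and Mpo passed as lower among 9 neutrophil markers (28.4 to 29.4 in knockout and 29.7 to 31.8 in wild type arrays). Their means in Dot1l knockout arrays, 3.86 and 3.83, were at the background guide, which leaves the size of these falls uncertain. Of the 9 neutrophil markers 5 were below the guide in all arrays and 0 above it in all arrays. Over all genes 4.30% passed as higher and 1.20% as lower. No marker passed of 6 for plasma cells, 4 for gamma delta and innate-like T cells, 3 for erythroid cells, 4 for platelets and megakaryocytes and 9 for stroma and endothelium. Among the CD8 T cell markers Cd5, a brake on T cell receptor signals, fell by 1.01 (SE 0.10, limma adjusted p = 0.000376). The part of these markers in the fall of Gimap7 was not tested.

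The genes most alike to Gimap7 over the 6 arrays, among 11400 genes above the background guide, were Zhx2, Kpna4, Dnajc15 and Srebf2, with Pearson r of 0.994 to 0.995. Of these Dnajc15, a mitochondrial co-chaperone gene, fell by 1.20 (limma adjusted p = 0.000531) and Srebf2, a regulator of cholesterol synthesis genes, by 0.69 (limma adjusted p = 0.00478). Zhx2 (-0.29) and Kpna4 (-0.25) did not pass. The mean of the 8 members was 8.47, 8.47 and 8.57 in Dot1l knockout and 8.72, 8.69 and 8.73 in wild type arrays. Without Gimap7 the mean of the other 7 was 8.88 to 8.95 in Dot1l knockout and 8.91 to 9.0 in wild type arrays, and these ranges overlapped. The genes closest to the mean of all 8 were Yeats4, Rnf19a, Med31 and Srfbp1 (r of 0.990 to 0.999), of which Rnf19a passed as lower (-0.52). The 6 points fall into the 2 genotypes, so these likenesses mostly restate the group difference and were given no test.

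Across 15 alternatives for each member, and 16 for Gimap1, no member changed its sign. Several of these could not change it. The replicate block, the filters on level, trend and robust fitting, and adjustment over all probe sets leave the difference of the chosen probe set as it is. Averaging probe sets can move Gimap1 only. Among the others, Gimap8 came down to 0.01 after median centring. Gimap7 passed in all 15, with differences from -1.44 to -1.22 and limma adjusted p from 8.8e-05 to 0.00818. Gimap3, Gimap4, Gimap5, Gimap8 and Gimap9 passed in none of their 15.

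**Figure D5:**
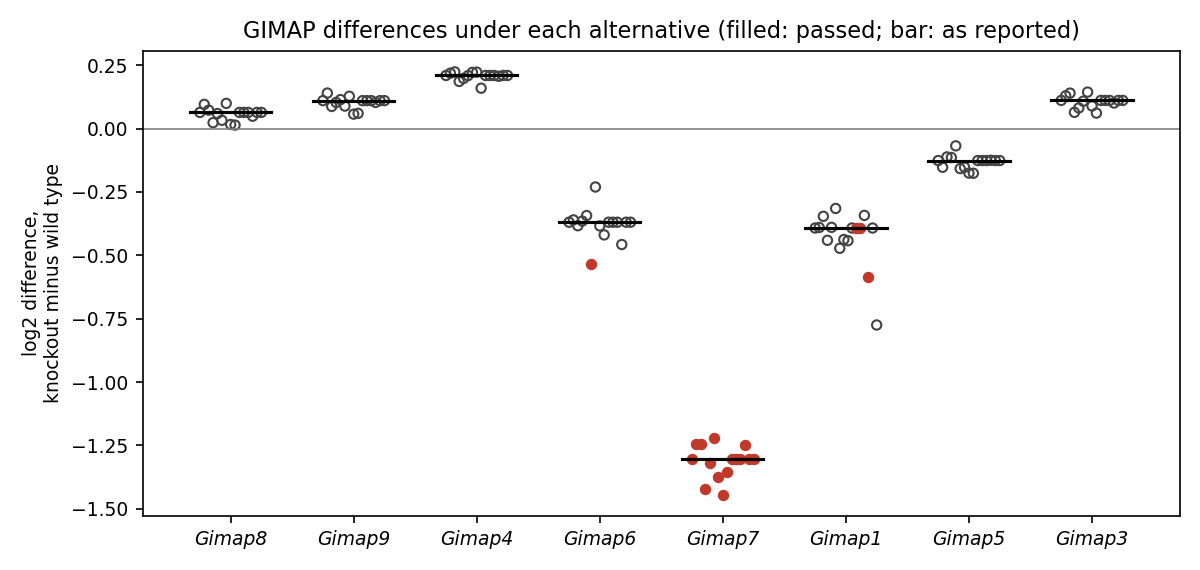
The vertical axis gives the log2 difference, Dot1l knockout minus wild type, and the horizontal axis the GIMAP genes in chromosomal order. Each point is 1 alternative way of processing or of choosing arrays, filled where the gene passed, and the bar is the value as reported. Gimap7 passed throughout (-1.44 to -1.22), Gimap1 in 3 of 16 and Gimap6 in 1 of 15.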

How the data were processed

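The values are deposited as log2 expression. The submitters' processing notes name RMA and R 3.1.1 for the authors' processing. The RMA method corrects background, quantile normalizes the arrays and summarises probes by median polish, and it compresses differences of dim probe sets. No source used here gives its settings, annotation version or build. Array medians lay between 3.69 and 3.78. Arrays have no count depth, and their number limits the precision.

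Of 41345 probe sets, 23521 named 1 gene symbol, 1814 several and 16010 none in the platform annotation. The brightest probe set per gene (highest mean over all 6 arrays) left 22180 genes. Dot1l knockout minus wild type was fitted over all of them with limma 3.58.1 in R 4.3.3 (lmFit, eBayes, no covariate), with Benjamini-Hochberg adjustment and a threshold of 0.05, and the fit was tested on simulated data. Promoters came from RefSeq GRCm38.p6 and gene order from RefSeq genes, and all 8 members matched by symbol. No RefSeq gene coordinates are printed beyond the promoter windows, because the source of the gene order names no build.

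Members and lists were chosen with earlier results of these data known. Named genes were the 8 members, Dot1l, the 6 measured neighbours on each side, the 4 list genes with the smallest p, up to 4 passing genes of each marker list and the 4 genes most alike by Pearson r, leaving out predicted genes and gene segments among the last. Outside this rule, and chosen after their values were seen, are the list genes Lef1, Gbp6 and Gabarapl2. The same holds for the label markers Cd8a and Cd8b1, the cell type markers Pax5 and Cd4, and 4 dendritic cell markers below 0.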

Additional observations from a re-analysis of the deposited data

How the results depend on the processing

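Replicate numbers did not pair the arrays: deviations from the group means of same-numbered arrays correlated at -0.16 to -0.07. With the replicate block, 1 member passed as lower (Gimap7, -1.30, limma adjusted p = 0.00223) and 0 as higher, and the count over all genes was 912. The block moved no other call of a member. As reported, 1220 genes passed. The count was 534 at an adjusted p under 0.01 and 615 to 1307 when 1 array was left out. The lower values came without knockout replicate 1, 2 or 3 (745, 696 and 615) and without wild type replicate 3 (780). The number of members passing as lower was 1 to 2 when 1 array was left out. It was 2 with the filter at the 50th percentile of level, with trend and robust fitting, and with the mean of probe sets, where Gimap1 joined Gimap7 (adjusted p = 0.0498, 0.0405 and 0.0302). It was 2 without wild type replicate 2, where Gimap6 joined. No member passed as higher under any alternative run. The family's median difference was -0.03 as reported, -0.06 to -0.004 with 1 array left out, -0.080 after quantile normalization and -0.081 after median centring, while the median of all genes moved to -0.06 under both scalings. In the naive list 2 genes passed as higher with trend and robust fitting, against 0 as reported. The cause of these shifts was not tested. Gimap1 near the threshold and Gimap6, with its wide wild type spread, are the calls that 3 arrays a group leave uncertain.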
